A study of Drosophila melanogaster with 4 samples.

Results

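Broad H3K4me2 domains are described here for heads of adult fruit flies. They were chosen by width: all regions of enrichment at least 10 kb wide on the chromosome arms 2L (start below 21 Mb), 3L (start below 22 Mb) and 3R (end above 1.5 Mb) in the authors' combined list. There were 281 such domains, among 3098 regions on these arms within the same limits and 5559 regions in the whole list. The limits leave out the sequence next to the centromeres.

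The study sequenced chromatin from head nuclei of Drosophila melanogaster of the Oregon-R strain, wild type in genotype and mixed adults by stage, which were kept in population cages on a 22-day cycle. Its 4 libraries are 2 H3K4me2 ChIP replicates and 2 input DNA replicates, and each input served 1 ChIP replicate. The ChIP pulls down DNA bound to histone H3 that carries 2 methyl groups on lysine 4, and regions of enrichment are stretches where that DNA is significantly overrepresented. A list was deposited for each ChIP replicate and 1 for both together, called the combined list, and the results rest on these ChIP lists alone. A head holds neurons, glia, eye, fat body and muscle, so a region may come from any of them, and region lists give no markers to check the tissue with.

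H3K4me2 is a mark of active or poised regulatory DNA, found around promoters and at enhancers. It lies between H3K4me1, which prevails at enhancers, and H3K4me3, which prevails at the starts of transcribed genes, and enzymes of the Set1 and Trithorax families place these marks in flies. A region that runs over many kilobases spans many nucleosomes, and can cover a long gene start, several enhancers or several neighbouring genes in this compact genome. No gene is named here, because positions are on FlyBase release 5 and no annotation of that release was used.

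The domains were few but held much of the marked sequence. They made up 9.07% of the regions of these arms (281 of 3098, exact 95% binomial interval 8.08 to 10.1%) and held 26.7% of their covered sequence, 4.05 of 15.2 Mb. Regions of 5 to 10 kb (803) held 36.5% and regions below 5 kb (2014) held 36.8%. Measured against the arms themselves, the domains took up 5.83% of the 69.4 Mb within the limits, or 4.05 domains per Mb. Binomial intervals cover counting error alone, and read depth is unknown. Width chose the domains, so these shares are a description, and no test is given here or below: all values come from a single group of 2 ChIP libraries.

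The arms resembled each other in most of these measures, though domains were sparser on 2L. There were 72 domains on 2L, 96 on 3L and 113 on 3R. They made up 7.85% of regions on 2L (interval 6.19 to 9.79%), 9.82% on 3L (8.02 to 11.9%) and 9.39% on 3R (7.80 to 11.2%), so the intervals overlapped. The share of covered sequence was 24.8% on 2L, 27.9% on 3L and 27.1% on 3R. Median domain width was 13.4 kb on 2L, 13.1 kb on 3L and 13.1 kb on 3R. Per Mb there were 3.43 domains on 2L, 4.36 on 3L and 4.28 on 3R, and they took up 5.08, 6.23 and 6.09% of the sequence within the limits.

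Wider regions were fewer, and the width limit fell within a continuous range of widths. Over the 3 arms the median domain was 13.2 kb wide (quartiles 11.3 and 15.9 kb). There were 182 domains of at least 12 kb, 88 of at least 15 kb, 31 of at least 20 kb and 11 of at least 25 kb. The last 11 alone held 2.06% of the covered sequence. In steps of 1 kb, there were 266 regions of 5 to 6 kb, 206 of 6 to 7 kb, 131 of 7 to 8 kb and 134 of 8 to 9 kb. There were 66 of 9 to 10 kb, 57 of 10 to 11 kb and 42 of 11 to 12 kb. The steep falls among these thus lay at 6, 7 and 9 kb and not at the limit. The 3 domains just inside it, all on 3L, were 10013 bp wide at 19587326 to 19597338, 10019 bp at 9703982 to 9714000 and 10049 bp at 19279658 to 19289706. The 3 regions just outside were 9983 bp wide on 3L at 4131158 to 4141140, 9979 bp on 3R at 19849696 to 19859674 and 9943 bp on 2L at 16724380 to 16734322.

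**Figure D1:**
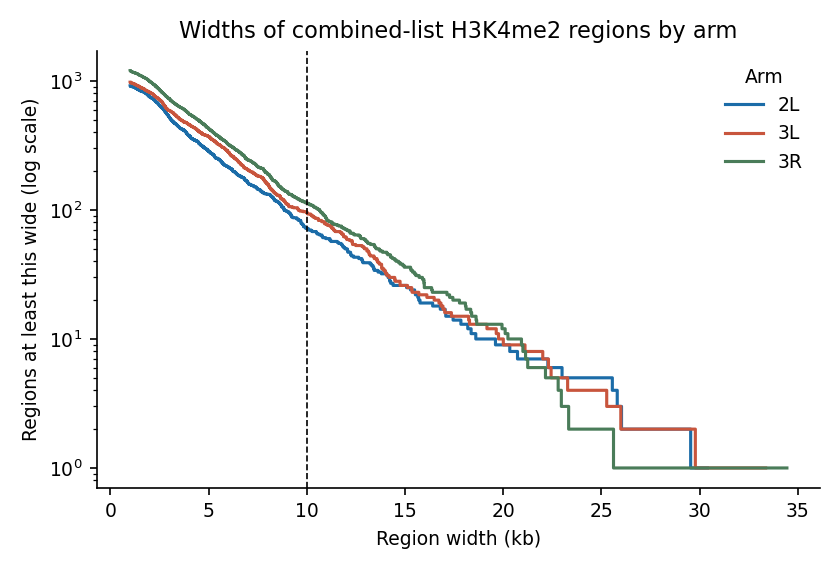
Number of combined-list regions (vertical axis, log scale) that are at least as wide as the value on the horizontal axis (kb), for arms 2L, 3L and 3R within the position limits; the dashed line marks 10 kb. The 3 curves run down side by side and pass 10 kb at 72, 96 and 113 regions.

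The widest domains were of unlike makeup in the replicates. The widest of all lay on 3R at 7038360 to 7072802 and measured 34.4 kb. Replicate 1 had 2 regions there, the wider of 27.1 kb, and replicate 2 had 3, the widest of 14.7 kb. Both replicates nevertheless covered nearly all of it, 99.6% in replicate 1 and 99.8% in replicate 2. The widest on 3L, 33.4 kb at 16769896 to 16803256, was 1 region of 33.3 kb in replicate 2 but 3 regions in replicate 1, of which the widest was 16.3 kb. On 2L the widest, 30.4 kb at 6043202 to 6073598, was broken in both replicates, into 3 regions in replicate 1 and 2 in replicate 2, and its widest pieces were 15.4 and 14.9 kb.

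Other wide domains were unbroken. On 2L, the domain at 19030806 to 19056828 measured 25.8 kb in each replicate, and that at 4441570 to 4467124 measured 25.4 kb in replicate 1 and 25.5 kb in replicate 2. On 3L, the domain at 9439282 to 9465268 was 25.6 kb wide in replicate 1 and 26.9 kb in replicate 2. On 3R, the domain at 5902150 to 5927764 was 25.04 kb wide in replicate 1 and 25.6 kb in replicate 2. Of the 5 widest domains of each arm, these 4 were the ones present as 1 region in both replicates.

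The remaining members of the 5 widest per arm were each split in 1 or both replicates. On 2L they were the domains at 922422 to 951964 (29.5 kb) and 150394 to 176198 (25.8 kb). On 3L they were those at 3804794 to 3834574 (29.8 kb), 19886628 to 19911896 (25.3 kb) and 1624992 to 1648270 (23.3 kb). On 3R they were those at 27633220 to 27656550 (23.3 kb), 14739898 to 14762856 (23.0 kb) and 19916038 to 19938834 (22.8 kb). Their covered share ran from 86.6% for the domain at 14739898 in replicate 1 to 99.2% for the domain at 19886628 in replicate 2.

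Along the arms, the domains were spread from the telomere to the inner limit. With each arm measured from its telomere end, median position was 41.2% of the assembled arm for the domains (quartiles 19.2 and 65.9%) and 44.2% for the 2817 narrower regions (quartiles 24.1 and 70.3%). By arm the medians were 35.8% for domains and 40.3% for narrower regions on 2L, 39.0% and 45.1% on 3L, and 47.9% and 46.6% on 3R. By median, the domains thus lay nearer to the telomere than the narrower regions on 2L and 3L. On 3R both were placed nearly alike, with quartiles of 25.2 and 72.8% for domains and 25.6 and 72.0% for narrower regions.

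In bins of 10% of the arm, 2L was uneven. Its bin from 40 to 50% held 14 domains, as did the outermost bin. The 3 bins from 50 to 80% held 4, 3 and 3 domains. These inner bins of 2L also had fewer regions of all widths, 85, 56 and 84, and the share that was broad was low there too (4.71, 5.36 and 3.57%). Low shares were not particular to them, since the bins of 2L from 10 to 20% and from 30 to 40% had 5.45% (6 of 110) and 4.72% (6 of 127). On 3L the count per bin ran from 6 to 15 over the 9 bins that the limit leaves, and on 3R from 9 to 14 outside the innermost bin, which the limit cuts.

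**Figure D2:**
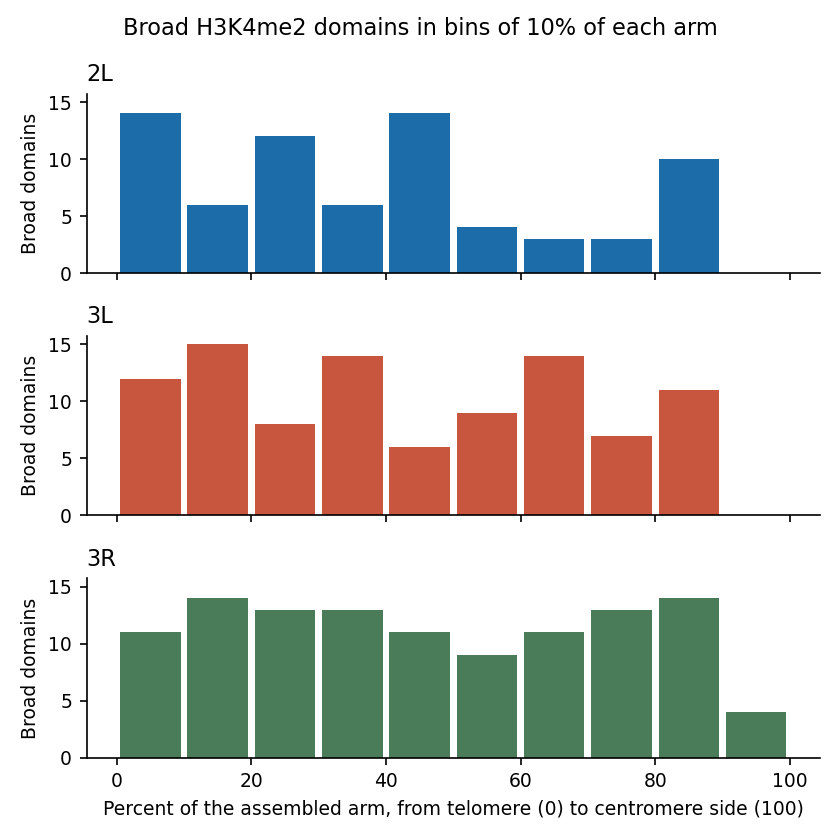
Number of broad domains (bars) in bins of 10% of the assembled length of arms 2L, 3L and 3R, from the telomere (0%) to the centromere side (100%); the position limits cut the innermost bin of 2L and 3R and remove that of 3L. On 2L the bars fall to 4, 3 and 3 domains between 50 and 80% of the arm, while 3R stays between 9 and 14 up to its innermost bin.

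In 68 full windows of 1 Mb, the number of domains, counted by midpoint, had a mean of 4.03 (SD 2.18 over windows), a median of 4 and a highest value of 10. The fullest window was 2L from 10 to 11 Mb, where 10 of 50 regions were broad and held 47.0% of the covered sequence. The windows on 3L from 3 to 4 Mb and on 3R from 5 to 6 Mb followed, with 9 domains each. A single window had none, 2L from 3 to 4 Mb, although it held 55 regions that covered 20.3% of it. A further 8 windows held 1 domain. The number of domains followed the share of the window covered (Spearman's rho 0.73 over 68 windows) more than the number of narrower regions in it (rho 0.28). These are descriptions across windows: neighbouring windows are not independent, and the domains are part of the covered share.

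Long stretches of the arms had no broad domain while narrower regions went on. Between neighbouring domains lay 278 stretches, with a median of 140 kb (quartiles 36.4 and 338 kb) and a median of 7 narrower regions. There were 6 stretches of over 1 Mb, of which 5 were on 2L. The longest was on 2L from 15025299 to 16707883, 1683 kb that held 64 narrower regions, the widest of them 9.30 kb. The next, also on 2L, ran from 2990073 to 4281217, and its 61 narrower regions covered 17.3% of its 1291 kb. The stretch over 1 Mb outside 2L was on 3L from 17844593 to 18888539, with 39 narrower regions. These stretches were chosen after their values were seen.

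Domains were seldom directly side by side, and the share that stood in groups depended on the distance allowed. With clusters defined as runs of 2 or more domains with at most 50 kb between neighbours, 135 of the 281 domains (48.0%, exact 95% binomial interval 42.1 to 54.1%) fell into 52 clusters. Of these clusters 34 had 2 domains, 10 had 3, 5 had 4, 2 had 5 and 1 had 7. The share in clusters was 44.4% on 2L, 51.0% on 3L and 47.8% on 3R. The nearest other domain was at a median of 54.4 kb (quartiles 14.9 and 158 kb). It was under 10 kb away for 51 domains and over 200 kb away for 55. The distance that joins a cluster decides the share: 29.9% of domains were clustered at 20 kb and 63.7% at 100 kb. Over the windows of 1 Mb, the variance of the domain count was 1.19 times its mean. The clustered share that domains placed at random would give was not computed, so grouping beyond such placement was not tested.

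The next region along the arm was usually a narrow one. Of the 561 neighbouring regions of domains, 58 (10.3%) were themselves at least 10 kb wide. Of the 5632 neighbours of narrower regions, 504 (8.95%) were. The broad share of the neighbouring regions was thus close, for domains and narrower regions alike, to the 9.07% that broad domains make up of all regions. There were 226 domains with no broad neighbour, 52 with 1 and 3 with 1 on each side. Neighbours of domains had a median width of 4.03 kb, against 3.53 kb for neighbours of narrower regions.

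The largest cluster held 7 domains on 2L between 10243390 and 10441376, a span of 198 kb. Its domains were 10.1 to 23.0 kb wide and filled 56.3% of the span. With 10 narrower regions between them, 81.0% of the span was covered. Domain scores in it ran from 0.86 to 1.97, and replicate coverage, as the mean of both, from 93.0 to 99.4%. The lowest score was that of the domain at 10282674 to 10292740, which was split into 2 regions in each replicate, while the wide domains at 10359490 to 10381762 and 10418382 to 10441376 were also split in each, with widest pieces of 17.2 and 20.3 kb in replicate 1 and 17.3 and 20.5 kb in replicate 2.

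The clusters of 5 were on 2L between 4964780 and 5100856 (136 kb) and on 3L between 3118318 and 3229402 (111 kb). In the 2L cluster, 57.0% of the span lay in domains and all 5 domains were unbroken in both replicates. In the 3L cluster the share was 61.8%. Its first domains, at 3118318 to 3128566 and 3129694 to 3151996, lay 1127 bp apart. The first was 1 region in replicate 1 and 2 regions in replicate 2, and the second was 3 regions in replicate 1 and 2 in replicate 2. The other 3 domains of that cluster were unbroken in both replicates.

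Some domains were nearly joined. Among 29 pairs of domains with no region between them, the median gap was 3.07 kb, and 7 pairs were under 1000 bp apart. The closest lay on 3L, where 11 bp separated the domain at 16030558 to 16044640 from that at 16044652 to 16055556. On 3R, 273 bp separated 19738408 to 19758506 from 19758780 to 19769474, and the joint span of this pair was 31.1 kb. The pairs were chosen after their values were seen.

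Flanking gaps were shorter beside the domains than beside narrower regions. The gap is the distance from an end of a region to the nearest region of any width. Its median was 4.16 kb beside domains (quartiles 1.20 and 11.9 kb), 5.25 kb beside regions of 5 to 10 kb and 7.19 kb beside regions below 5 kb. The same order was seen on each arm: 3.38, 4.14 and 6.96 kb on 2L, 4.85, 5.42 and 7.34 kb on 3L, and 3.93, 5.28 and 7.17 kb on 3R. It was also seen in each replicate list with its own widths (4.62, 5.19 and 7.83 kb in replicate 1, and 4.41, 5.46 and 7.90 kb in replicate 2). Gaps of at least 50 kb were 4.63% of the gaps beside domains, 9.46% beside regions of 5 to 10 kb and 11.2% beside regions below 5 kb. The difference between widths was not tested.

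**Figure D3:**
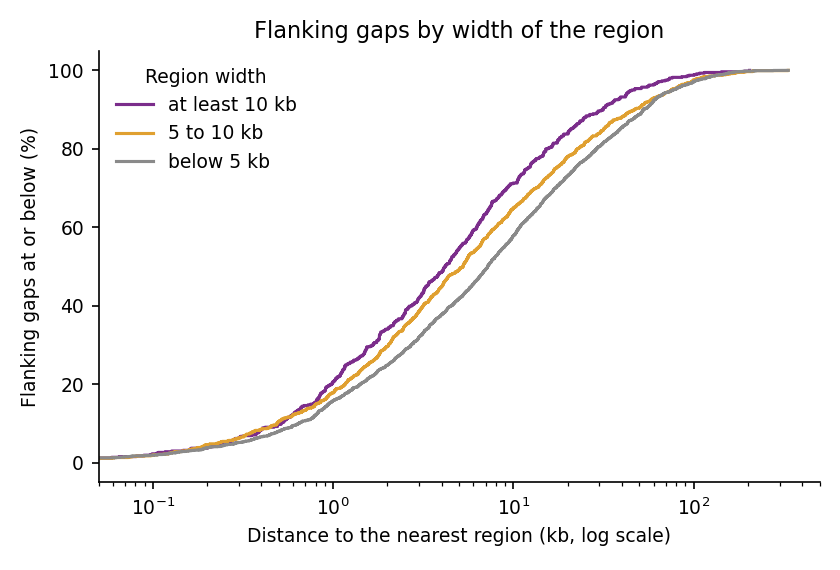
Cumulative percentage of flanking gaps (vertical axis) up to a given length (horizontal axis, kb, log scale) for combined-list regions of at least 10 kb, of 5 to 10 kb and below 5 kb on arms 2L, 3L and 3R. The curve of the broad domains lies to the left of the others over most lengths, with medians of 4.16, 5.25 and 7.19 kb.

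The gaps of a domain were often unequal. The shorter gap had a median of 1.52 kb and the longer one of 10.5 kb, and in 143 of the 280 domains with a region on both sides (51.1%) the longer gap was over 5 times the shorter. At least 1 gap was under 2 kb in 163 domains (58.2%, exact 95% binomial interval 52.2 to 64.1%), against 50.7% of regions of 5 to 10 kb and 42.0% of regions below 5 kb. Both gaps exceeded 20 kb in 9 domains (3.21%, interval 1.48 to 6.01%), against 6.72% and 10.1% of those regions. Width and the sum of both gaps were weakly related among the domains (Spearman's rho -0.11, 280 domains).

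The most isolated domain by the sum of its gaps was on 3L at 9959782 to 9970366, with 36481 bp to its left and 204121 bp to its right. It was 10.1 kb wide in replicate 1 and 10.0 kb in replicate 2, unbroken in both. The 3L domain at 5349624 to 5361954 and the 3R domain at 23103628 to 23116548 stood at the edge of a long empty stretch: a region lay 671 and 519 bp to the left of them, and none for 190699 and 142425 bp to the right. The 2L domain at 2573390 to 2586034 was the 1 domain with over 50 kb on either side, 76105 and 91379 bp. The fifth was on 3L at 19279658 to 19289706, with gaps of 20173 and 100397 bp.

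Each domain was found in both replicate lists. All 281 were overlapped by at least 1 bp in replicate 1 and in replicate 2 (exact 95% binomial interval 98.7 to 100% in each), where 86.7% of all regions of these arms were overlapped in replicate 1 and 87.4% in replicate 2. The regions of 5 to 10 kb were likewise overlapped, 803 of 803 in replicate 1 and 802 of 803 in replicate 2, so the regions without a counterpart were nearly all below 5 kb. Of the bases in domains, 95.0% lay inside regions of replicate 1 and 95.5% inside those of replicate 2, a mean of 95.3% ± 0.364 (SD, n = 2). At least 80% of the domain was covered for 269 domains in replicate 1 and 272 in replicate 2 (95.7 and 96.8%, where 76.7 and 78.6% of all regions were so covered). Of regions of 5 to 10 kb, 89.4 and 90.3% were so covered, and of those below 5 kb 69.0 and 71.4%. The combined list shares its libraries with the replicate lists, so this recovery is no independent check. Whether the replicates came from separate collections of flies is not said in the labels, so their spread may be technical.

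The ends of most domains were close in the replicates. A domain end lay a median of 83.5 bp outside the outermost replicate 1 end and, at the upper quartile, 244 bp outside it, against 214 bp for replicate 2. Among the 162 domains that were 1 region in both replicates, the replicates' starts were a median of 93.0 bp apart and their ends 72.5 bp, and 286 of 324 ends (88.3%) agreed within 500 bp. The greatest distance among these 162 was 2670 bp. Split domains were left out of this comparison, and their ends could lie further apart. The 3L domain at 3740014 to 3753582 reached 3975 bp beyond the last replicate 1 end and 103 bp beyond that of replicate 2.

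Breadth itself was recovered less often than position. A region of at least 10 kb overlapped the domain in replicate 1 for 208 of 281 domains (74.0%, exact 95% binomial interval 68.5 to 79.0%) and in replicate 2 for 216 (76.9%, interval 71.5 to 81.7%), where 6.75 and 6.97% of all regions met this condition. Nearly all of the latter were the domains themselves (208 of 209 and 216 of 216), so the contrast with all regions follows from the width rule. Such a broad replicate region was present in both replicates for 189 domains, in replicate 1 alone for 19, in replicate 2 alone for 27 and in neither for 46 (16.4%). By arm, 70.8% were kept in both replicates on 2L, 69.8% on 3L and 62.8% on 3R. The share kept in both was higher among wider domains, at 43.9% of the 57 domains of 10 to 11 kb, 67.0% of the 94 of 12 to 15 kb and 90.3% of the 31 of at least 20 kb. The limit of 10 kb is also the one that chose the domains, so this rise follows in part from the rule. A wide domain can lose more of its width, or be split, and still be kept. Applied to the replicate lists, the same limits gave 211 domains in replicate 1 and 220 in replicate 2, and each of them overlapped a domain of the combined list.

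Part of the domains were made of several replicate regions. In replicate 1, 92 domains (32.7%) were overlapped by 2 or more regions, and in replicate 2, 83 (29.5%), where 6.04 and 5.29% of all regions were. Of regions of 5 to 10 kb, 9.96 and 9.09% were, and of those below 5 kb 0.74 and 0.40%. A narrow region has little room for 2 replicate regions, so the contrast with all regions follows in part from the width rule. Splits went with width: 67.7% of domains of at least 20 kb were split in replicate 1 and 54.8% in replicate 2, against 21.1 and 19.3% of those of 10 to 11 kb. Inner gaps per length of domain were not compared. There were 56 domains split in both replicates, 36 in replicate 1 alone and 27 in replicate 2 alone, and 162 (57.7%) were unbroken in both.

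The inner gaps were short. In split domains the longest inner gap had a median of 407 bp in replicate 1 and 291 bp in replicate 2, and the longest of all was 2723 bp in replicate 1 and 3109 bp in replicate 2. Of 108 inner gaps in replicate 1, 42 (38.9%) met an inner gap of replicate 2, and the same number was 44.2% of the 95 inner gaps of replicate 2. The most divided domain, on 3R at 4164662 to 4185590 (20.9 kb), was made of 4 regions in each replicate, with widest pieces of 7.90 and 7.70 kb, but was covered to 95.6% in replicate 1 and 93.0% in replicate 2.

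**Figure D4:**
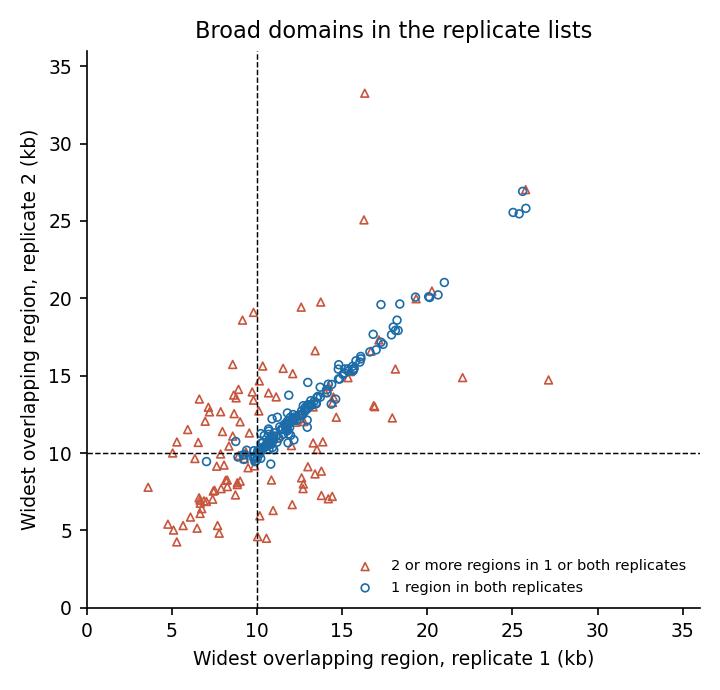
Width of the widest overlapping region in replicate 1 (horizontal axis, kb) and replicate 2 (vertical axis, kb) for each of the 281 broad domains, as triangles where 1 or both replicates had 2 or more regions and as circles where both had 1; dashed lines mark 10 kb. The 162 circles lie near the diagonal and the triangles scatter, and 46 domains stand below 10 kb in both replicates.

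Of the 5 least covered domains, 4 had scores below 1. The lowest mean coverage, 71.2% ± 0.912 (SD, n = 2), was that of the 3R domain at 6796274 to 6807590, whose 11.3 kb were split into 2 regions in each replicate. It also had the lowest score of all domains, 0.59. The 3L domain at 3740014 to 3753582 was covered to 60.8% in replicate 1, the least of any domain there, but to 89.0% in replicate 2. The 3R domain at 22954286 to 22967278 was covered to 78.3% and 75.6%, and the 3R domain at 1589526 to 1599896 to 88.9% and 68.3%, in replicates 1 and 2. The 3L domain at 221962 to 232282 was 1 region in each replicate, of 7.04 kb in replicate 1 and 9.45 kb in replicate 2, and its score of 1.32 was the highest of these 5.

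The authors' score, for which the labels and headers give no definition, ranked most domains in the upper part of the combined list. Its median was 1.65 for domains (quartiles 1.36 and 1.87), 1.52 for regions of 5 to 10 kb and 0.70 for regions below 5 kb. Since scores and widths come from the same calls, this is a description. The highest 10% of the 3098 regions began at a score of 1.86 and held 72 domains, 25.6% of them. Below the median of all regions, 1.12, were 33 domains (11.7%). Median domain score was 1.69 on 2L, 1.63 on 3L and 1.64 on 3R.

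Above 5 kb, the score hardly rose with width. Spearman's rho of width and score was 0.11 over the 281 domains and 0.06 over the 803 regions of 5 to 10 kb, against 0.77 over the 2014 regions below 5 kb. The highest-scoring domains were on 2L at 4964780 to 4985112 (2.31), on 3R at 17842222 to 17863358 (2.28) and on 2L at 13825826 to 13838624 (2.22), with widths of 20.3, 21.1 and 12.8 kb. All 3 were unbroken in both replicates. The lowest-scoring were that on 3R at 6796274, given above, one on 3R at 2252744 to 2263210 (0.66) and one on 2L at 4858704 to 4870796 (0.73), which were split in 1 or both replicates.

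**Figure D5:**
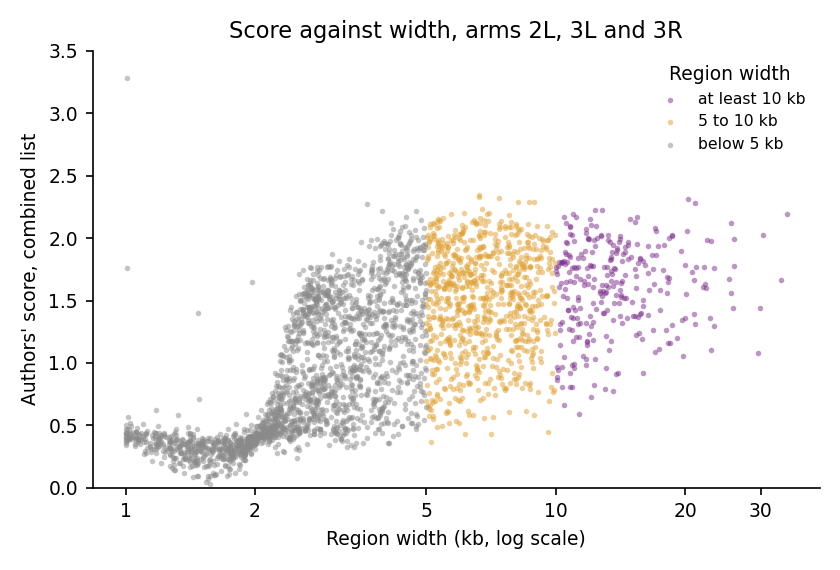
Authors' score of each region (vertical axis) against its width (horizontal axis, kb, log scale) in the combined list on arms 2L, 3L and 3R, coloured by width class. Scores of the 281 broad domains spread between 0.59 and 2.31 with little slope (rho 0.11), while those of regions below 5 kb rise with width (rho 0.77).

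Domains of low score were split more often. Of the 93 lowest-scoring domains, with scores up to 1.44, 62.4% were split in 1 or both replicates, against 26.9% of the 93 highest-scoring, with scores of at least 1.79. Their median widths were 12.3 and 13.4 kb, and splits were not compared at matched width. In placement, 48.4% of each set stood in clusters, and the median flanking gap was 4.07 kb for the lowest-scoring and 4.42 kb for the highest-scoring. Over the 162 domains unbroken in both replicates, scores of replicates 1 and 2 correlated with Pearson's r = 0.97, and widths with Spearman's rho 0.97. These points share the libraries and the positions, and no p is given.

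Outside these arms, the broad class was close in size on 2R and larger on X. Both were taken whole, without position limits, unlike the 3 arms. On 2R, 89 of 1113 regions were at least 10 kb wide (8.00%, exact 95% binomial interval 6.47 to 9.75%) and held 23.5% of its covered sequence, against 9.07 and 26.7% on the 3 arms. On X, 182 of 996 were (18.3%, interval 15.9 to 20.8%), and they held 49.2%. Broad regions of X were also wider, with a median of 14.5 kb, and the widest measured 57.7 kb. Between replicates the broad regions of X were the less steady ones. As replicate 2 minus replicate 1, their covered bases differed by 5.13 percentage points. The difference was 0.515 points on the 3 arms, -0.151 on 2R and -0.964 on chromosome 4, so steadiness was not particular to the 3 arms. Counts kept at 10 kb or more in replicates 1 and 2 were 121 and 162 of 182 on X. They were 208 and 216 of 281 on the 3 arms, 67 and 67 of 89 on 2R, and 12 and 13 of 16 on chromosome 4. None of these differences between chromosomes was tested. A large broad class was not particular to X: on chromosome 4, 16 of 84 regions were broad (19.0%, interval 11.3 to 29.1%) and held 53.1% of its covered sequence.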

How the data were processed

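Regions were those the authors deposited: 3 lists of significant enrichment, 1 for each ChIP replicate (5127 and 5125 regions) and 1 combined (5559), on FlyBase release 5, per the file headers. The score of each region is as deposited by the authors, and its definition is not given. The submitters' processing notes name Bowtie 0.12.7. For the region caller, threshold and combining of replicates, details were not given in the sources used here. Minimum widths were 1302 bp (replicate 1), 1301 bp (replicate 2) and 1001 bp (combined), and all positions of the combined list are even. Read depth is unknown, so no precision can be derived from it.

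From these lists, widths, gaps (bases between neighbouring regions of any width), clusters and overlaps of at least 1 bp were computed in Python 3.11.15 with numpy 2.4.6 and scipy 1.17.1, and figures drawn with matplotlib 3.10.9. Intervals on shares are exact Clopper-Pearson at 95%. The code was tested on simulated lists. Named regions are the 5 widest per arm, the 3 largest clusters, the 5 with the longest gaps, the 5 least covered, the 3 highest and 3 lowest scores, the 3 on each side of the limit and the most divided, unless said otherwise. The domains and these rules were chosen with earlier results of these data known. No gene annotation or genome of release 5 was used, so no gene names and no sequences are given.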

Additional observations from a re-analysis of the deposited data

How the results depend on the processing

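The number of domains follows from the width limit: it was 481 at 8 kb, 182 at 12 kb and 88 at 15 kb, and the share of covered sequence then was 38.3, 19.5 and 11.3%, the share in clusters 67.8, 36.3 and 21.6% and the median flanking gap 4.82, 3.55 and 3.88 kb. Median score was 1.61 at 8 kb. Merging regions under 1000 bp apart gave 404 domains with 41.5% of the covered sequence, 60.6% in clusters and a median gap of 6.99 kb, which by construction leaves no gap under 1000 bp. The higher-scoring 50% of the combined list gave 251 domains, 34.9%, a median gap of 9.76 kb and a median score of 1.69. Clusters held 29.9% of domains at 20 kb and 63.7% at 100 kb. Without replicate 1 or 2, that is on the list of the other, there were 211 to 220 domains with 21.1 to 22.1% of covered sequence, 42.2 to 46.4% in clusters, median gaps of 4.41 to 4.62 kb and median scores of 1.71 to 1.76. These scores cannot be set against those of the combined list, since the score is undefined and its scale may differ. Over each whole list its median was 1.11 (combined), 1.33 (replicate 1) and 1.27 (replicate 2). Recovery in the replicates, 100% at 1 bp, averaged 93.6% at a reciprocal overlap of 50%, 96.3% with 80% of the domain covered and 84.9% with the higher-scoring 50% of each replicate list, where 78.6% of domain bases were covered, against 95.3% with all regions. Domains that were 1 unbroken region of at least 10 kb averaged 63.2%, 61.6 to 64.8% in a single replicate, and 68.7% at 8 kb. Flanking gaps beside domains were the shortest in these lists too, with medians of 6.99, 7.40 and 10.4 kb for domains, regions of 5 to 10 kb and regions below 5 kb after merging, and 9.76, 10.9 and 11.3 kb in the higher-scoring 50%; this comparison was added after the data were seen. Whole arms gave 294 domains, within 1.5 times the 281 reported, and moved the other results by less than the spread between replicates or within the binomial interval. Windows of 500 kb or 2 Mb left the median of 4 domains per Mb. No paired analysis was possible because the results use a single group, the ChIP lists, with no other group to pair. Read depth is unknown, so what it limits was not tested.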
